A study of Mus musculus with 6 samples.

Results

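Chac1 and 9 enzyme genes of glutathione metabolism and antioxidant defence (Gclc, Gclm, Gss, Gsr, Gpx1, Gpx3, Sod1, Sod2 and Cat) were followed in mouse soleus, a slow calf muscle. These 10 genes were taken by symbol from 19938 genes with a single symbol on the Affymetrix Mouse Gene 1.0 ST array. Chac1 was selected on its measured rise in suspended muscle in an earlier analysis of these same arrays. Its values are therefore a description and carry no test. The other 9 were listed with it by function. All 10 had 1 transcript cluster, the probe group that stands for a gene, so taking the brightest cluster per symbol made no choice among them. No filter on low signal was applied. On every array all 10 lay above 3.50 log2, the 95th percentile of the mean signals of 1027 olfactory receptor genes, which serve as a measure of background.

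The arrays fell into 3 groups of 2. The first group had hindlimb suspension with electroacupuncture (HS + EA below), the second hindlimb suspension alone (HS), and the third was control soleus with no suspension in its label. Suspension keeps the hind feet off the ground and unloads the muscle, and electroacupuncture drives current through inserted needles. All samples were labelled male C57BL/6 mice of 8 weeks, with no transgene, and neither the length of suspension nor the needle sites are given in the labels. Whether duplicates are separate mice is not stated, so the p-values measure the spread between arrays, which may be technical. Array medians lay between 4.13 and 4.19 log2. The 10 genes examined as slow-muscle markers, Ckm and Acta1 among them, had mean signals from 10.30 to 13.36. No fast-muscle marker list was set beside them, so these values do not tell soleus from another muscle. In whole muscle, fewer cells of a type and less RNA per cell cannot be told apart.

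Glutathione is a tripeptide that buffers the redox state of the cell. It is made in sequence by glutamate-cysteine ligase (Gclc and Gclm) and glutathione synthetase (Gss), used by glutathione peroxidases to reduce peroxides, recycled by glutathione reductase (Gsr) and cleaved in the cytosol by Chac1. Superoxide dismutases turn superoxide into hydrogen peroxide, which catalase and the peroxidases remove. Chac1 is known as a target of the transcription factors ATF4 and CHOP in the response to unfolded protein and amino acid shortage, and several of the synthesis genes as targets of NRF2, which binds antioxidant response elements.

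The 250 bases before the transcription start are shown for Chac1, which had the largest difference of the 10 genes, and for Gclm, whose pattern over the arrays was nearest to it. They are RefSeq sequences of GRCm38.p6, both on the plus strand, at chr2:119350992-119351241 for Chac1 and chr3:122245307-122245556 for Gclm. The capitals mark a match to TGATGNAA, the core of the C/EBP-ATF response element, in Chac1 and to TGACNNNGC, the antioxidant response element core, in Gclm. Both matches read on the opposite strand.
Chac1: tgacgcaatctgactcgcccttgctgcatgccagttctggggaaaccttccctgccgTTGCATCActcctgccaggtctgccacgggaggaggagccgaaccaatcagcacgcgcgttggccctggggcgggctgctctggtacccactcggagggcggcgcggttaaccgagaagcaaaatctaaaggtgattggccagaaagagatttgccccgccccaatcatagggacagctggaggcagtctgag
Gclm: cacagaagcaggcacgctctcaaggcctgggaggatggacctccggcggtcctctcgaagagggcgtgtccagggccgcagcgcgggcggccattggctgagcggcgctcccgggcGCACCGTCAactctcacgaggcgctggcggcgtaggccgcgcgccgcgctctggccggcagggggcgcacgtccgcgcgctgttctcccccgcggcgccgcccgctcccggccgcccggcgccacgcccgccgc
The match in Chac1, TGATGCAA on the opposite strand, lay 186 to 193 bases before the start. That in Gclm, TGACGGTGC on the opposite strand, lay 126 to 134 bases before it. Among 32851 such windows of RefSeq genes, 3.45% held the first motif and 10.2% the second, on either strand. Windows were at hand for 8 of the 10 genes (not for Gclc and Gsr). Chac1 alone of these 8 held the first motif, while Gclm and Sod1 held the second. No window of these 8 held both motifs, and a match is a run of letters, not a shown binding site.

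Chac1 cleaves glutathione into 5-oxoproline and cysteinylglycine. Its signal was 7.61 and 8.18 log2 on the HS + EA arrays, 8.63 and 7.81 on the HS arrays, and 5.25 and 6.64 on the control arrays. All 4 suspended arrays lay above both controls. The control arrays were 1.38 log2 apart, or 2.61-fold, a wider gap than in any other of the 10 genes or in either suspended group. The difference between HS and control was 2.27 ± 0.42 log2 (SE), or 4.84-fold, and that between HS + EA and control 1.95 ± 0.42, or 3.86-fold. Both share the control arrays and are not independent. Without control array 1 they came to 1.58 and 1.26, and without control array 2 to 2.97 and 2.64. HS + EA and HS overlapped, with a difference of -0.33 ± 0.42 and a 95% interval from -1.28 to 0.63, and without HS array 1 it was 0.08.

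**Figure D1:**
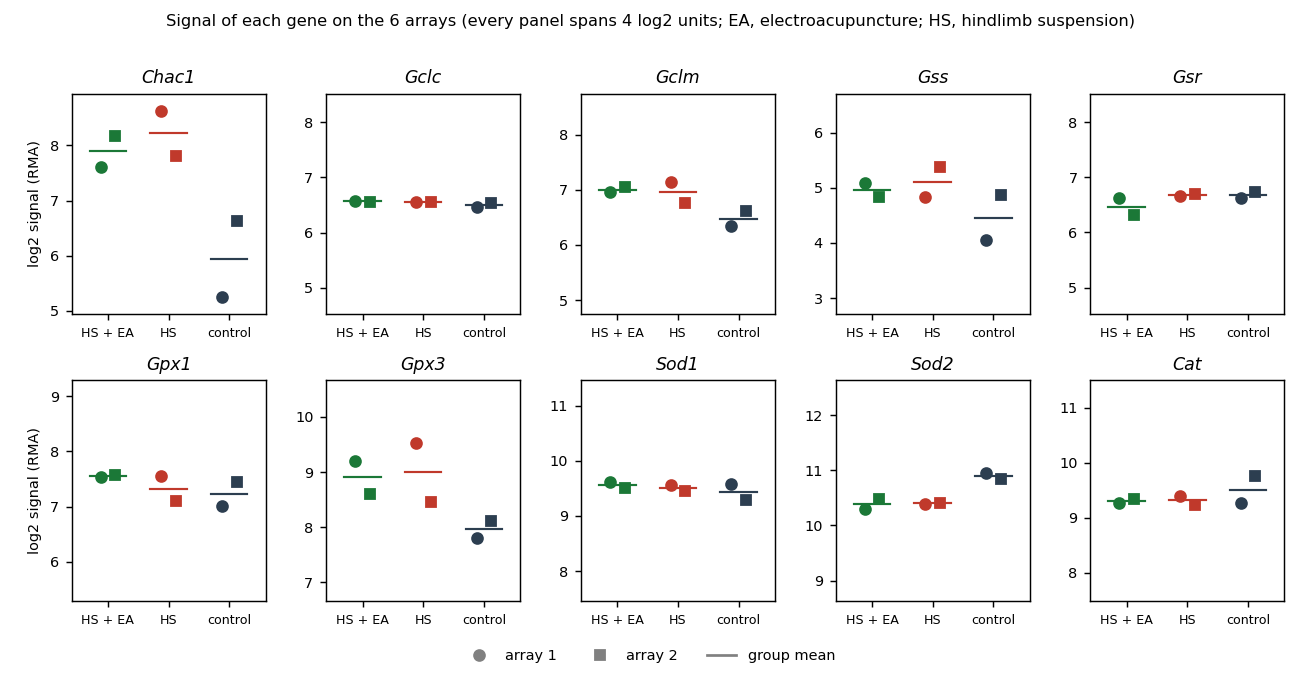
Log2 signal (RMA) of the 10 genes in HS + EA, HS and control soleus, with 1 point per array (circle array 1, square array 2) and a line at the group mean; every panel spans 4 log2 units. Chac1 has the widest spread, from 5.25 on control array 1 to 8.63 on HS array 1, and Sod2 has both controls above all 4 suspended arrays.

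Of 19938 genes, 209, or 1.05%, passed limma's adjusted p under 0.05 between HS and control. None of the 9 enzyme genes was among them, and the lowest adjusted p was that of Sod2, 0.134. Chac1 was among the 209, but it was picked for that rise, so its place there is not a test result. Under 9 of the alternatives it was not among the genes that passed. Between HS + EA and control 206 genes, or 1.03%, passed, with again none of the 9 (lowest 0.131, Sod2). Between HS + EA and HS 0 genes (0%) passed, and the 9 enzymes all stood at an adjusted p of 1.00. There 612 genes had an unadjusted p under 0.05, fewer than the 997 expected by chance with no difference in any gene. Leaving the threshold aside, the arrays of HS and control did not overlap for 4 of the 9 enzymes (Gclc, Gclm and Gpx3 higher, Sod2 lower), where 39.8% of all genes did not overlap. For HS + EA and control it was 5 of 9 (the same genes and Gpx1, higher), beside 41.8% of all genes. For HS + EA and HS it was 1, Gsr, beside 32.6% of all genes. The median difference of the 9 enzymes between HS and control was 0.08 log2, and that of all genes 0.01.

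Of the synthesis genes, Gclm, the modifier subunit that raises the activity of the ligase, had 6.96 and 7.05 log2 on the HS + EA arrays, 7.15 and 6.76 on the HS arrays, and 6.34 and 6.61 on the control arrays. Every suspended array was above both controls. Its difference was 0.48 ± 0.17 for HS against control, with a 95% interval from 0.09 to 0.86 before adjustment and an adjusted p of 0.269, and 0.52 ± 0.17 for HS + EA against control (adjusted p = 0.225). The catalytic subunit gene Gclc stood at 6.58 and 6.55 in HS + EA, 6.56 and 6.55 in HS, and 6.46 and 6.54 in control. This was the narrowest range of the 10 genes, 0.11 log2 over the 6 arrays. The interval of its HS and control difference ran from -0.23 to 0.34, which is 0.853-fold to 1.27-fold. Although no array of the suspended groups overlapped the controls for Gclc, the difference, 0.06 ± 0.13, was smaller than its error.

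Gss, which adds glycine in the last step of synthesis, was the dimmest of the 10 clusters. It gave 5.09 and 4.84 log2 in HS + EA, 4.83 and 5.37 in HS, and 4.05 and 4.86 in control. Control array 1 was low and control array 2 lay among the suspended arrays. The difference of 0.64 ± 0.28 between HS and control (adjusted p = 0.381) was 0.24 without control array 1 and 1.05 without control array 2. HS + EA differed from control by 0.51 ± 0.28 (adjusted p = 0.520), and by 0.10 without control array 1.

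Gsr returns oxidised glutathione to its reduced form with NADPH. It had 6.62 and 6.31 log2 in HS + EA, 6.67 and 6.70 in HS, and 6.62 and 6.73 in control. Only HS + EA array 2 stood apart, below the other 5. HS differed from control by 0.01 ± 0.15 (adjusted p = 0.988), and HS + EA from HS by -0.22 ± 0.15, with an interval from -0.55 to 0.11.

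The 2 peroxidase genes, both of selenoenzymes, differed in how far their arrays spread. Gpx1, the cytosolic peroxidase, had 7.54 and 7.57 log2 in HS + EA, 7.56 and 7.09 in HS, and 7.01 and 7.45 in control. HS and control overlapped, with a difference of 0.10 ± 0.19 (adjusted p = 0.891) that turned to -0.12 without control array 1 and to -0.13 without HS array 1. HS + EA lay above control by 0.33 ± 0.19 (adjusted p = 0.564). Gpx3, the secreted peroxidase, had 9.21 and 8.60 in HS + EA, 9.53 and 8.46 in HS, and 7.80 and 8.12 in control. All 4 suspended arrays were above both controls. Its differences from control were the largest among the 9 enzymes, 1.04 ± 0.32 for HS, or 2.05-fold (adjusted p = 0.203), and 0.94 ± 0.32 for HS + EA, or 1.92-fold (adjusted p = 0.256). The 2 HS arrays were themselves 1.06 log2 apart, and without HS array 1 the difference from control came to 0.50, against 1.57 without HS array 2.

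In the 2 suspended groups Gpx3 was higher on array 1, which also had the higher macrophage marker level. The adipocyte, endothelial and erythroid marker means were likewise higher on array 1 in both groups. The erythroid list had 3 measured genes, 2 of them with a mean above background. In HS only Alas2 of that list was higher on array 1, at 5.86 against 4.91. The tendon and fibroblast marker mean was higher on array 1 in HS, at 7.77 against 6.99, but not in HS + EA, at 7.53 against 7.62. The slow-muscle marker mean was higher on array 1 in neither group. The mean signal of the 10 measured macrophage markers was 6.15 and 5.85 log2 in HS + EA, 5.94 and 5.32 in HS, and 5.28 and 5.60 in control. None of the 10 passed between any 2 groups. All 10 had a mean above background, from 3.78 for Fcgr1, close to the background of 3.50, to 8.29 for Lyz2. Of the other marker lists, Tnmd of tendon passed lower against control in both suspended groups (limma adjusted p = 0.00307 in HS and 0.0111 in HS + EA). Scx of tendon, Kdr of endothelium and Myl3 of slow muscle passed lower in HS + EA against control (adjusted p = 0.0334, 0.0135 and 0.0377). Of all genes 1.05% passed in HS and 1.03% in HS + EA. The metallothionein genes Mt1 and Mt2, whose proteins bind zinc and copper, split the HS arrays the same way, at 10.03 and 8.64 for Mt1 and 11.49 and 9.06 for Mt2. In HS + EA they were higher on array 2 instead, at 8.94 and 9.28 for Mt1 and 10.38 and 10.42 for Mt2. The part of macrophages, of other cells or of HS array 1 in the Gpx3 values was not tested.

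Sod2, the manganese dismutase of the mitochondrion, was the one gene of the 10 with a lower signal on all 4 suspended arrays. It had 10.30 and 10.48 log2 in HS + EA, 10.39 and 10.41 in HS, and 10.96 and 10.84 in control. HS differed from control by -0.49 ± 0.13, with a 95% interval from -0.79 to -0.20 before adjustment. HS + EA differed from control by -0.51 ± 0.13, and HS + EA from HS by -0.01 ± 0.13. Neither difference from control passed over all genes, with the adjusted p of 0.134 and 0.131 given above. The difference between HS and control stayed between -0.55 and -0.43 with each array left out in turn.

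Sod1, the copper and zinc dismutase of the cytosol, had 9.62 and 9.51 log2 in HS + EA, 9.57 and 9.45 in HS, and 9.57 and 9.30 in control. The 3 groups overlapped, and HS differed from control by 0.08 ± 0.14 (adjusted p = 0.884). Cat, the peroxisomal enzyme that breaks down hydrogen peroxide, had 9.27 and 9.33 in HS + EA, 9.40 and 9.23 in HS, and 9.27 and 9.75 in control. Control array 2 was above the other 5 arrays, which lay within 0.17 log2 of each other. The difference of -0.20 ± 0.17 between HS and control (adjusted p = 0.718) turned to 0.04 without that array. Adipocyte markers were also highest there: the mean of the 9 measured was 6.49 and 6.39 in HS + EA, 6.13 and 5.98 in HS, and 5.95 and 7.39 in control, with Adipoq at 8.09 on control array 2 and 5.10 on control array 1. All 9 had a mean above background, from Cidea, the dimmest, to 9.36 for Fabp4, and none passed between any 2 groups. The erythroid, endothelial and slow-muscle marker means were highest on control array 2 as well. They were 4.41, 7.46 and 12.19 log2 there, against at most 4.29, 7.43 and 11.86 on any other array. Those of macrophages and tendon were not highest there. The erythroid and endothelial leads were narrow and not shared by all their genes. Slc4a1, Cdh5, Tek and Vwf were lower on control array 2 than on HS array 1, and the other measured genes of those lists were higher. The part of fat cells, of other cells or of control array 2 in the Cat values was not tested.

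**Figure D2:**
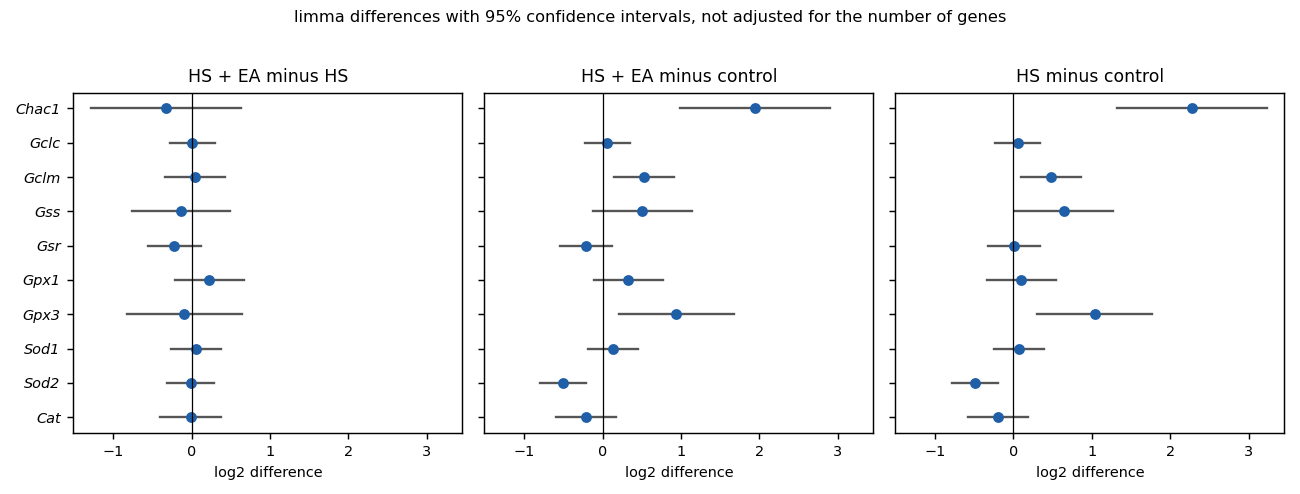
Differences of the 10 genes in log2 units for HS + EA minus HS, HS + EA minus control and HS minus control, as limma estimates (points) with 95% intervals (bars) that are not adjusted for the number of genes. Against control, intervals of Gclm and Gpx3 lie above 0 and that of Sod2 below 0 in both suspended groups, none of the 3 genes passed over all genes, and Chac1 is drawn as a description.

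Differences of the 10 genes, HS + EA minus HS, ran from -0.33 in Chac1 to 0.23 in Gpx1, and every 95% interval included 0. The narrowest of them, for Gclc, ran from -0.28 to 0.29 log2, or 0.824-fold to 1.23-fold, and that of Sod2 from -0.31 to 0.28. For Chac1 and Gpx3 the arrays allowed more, down to 0.411-fold and up to 1.55-fold for Chac1, and 0.565-fold to 1.56-fold for Gpx3. A missed threshold does not show that both groups had the same level.

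Around these genes, 130 further genes in 6 lists were examined, 119 of them measured. Between HS and control 1 rose and 1 fell, beside 1.05% of all genes that passed in either direction. Between HS + EA and control 3 rose and 1 fell, beside 1.03% of all genes. Between HS + EA and HS none passed. With one variance prior for all genes, none of these list genes passed in any comparison. With the compared groups fitted alone, none passed between HS and control, and Dpep1 and Hspa5 were left between HS + EA and control. The rise in HS was in 1 of 20 measured glutathione transferases, which couple glutathione to other molecules. Gstm1, a mu-class transferase, had 10.14 and 10.22 log2 in HS + EA, 10.16 and 9.93 in HS, and 8.65 and 9.27 in control. The 4 suspended arrays were close together and above both controls. It rose by 1.09 ± 0.20 in HS, or 2.12-fold (adjusted p = 0.0437), and by 1.22 ± 0.20 in HS + EA, or 2.33-fold (adjusted p = 0.0288). The HS call was lost without any 1 array except control array 2 (0.78 without control array 1, adjusted p = 0.0533). The HS + EA call was lost without any 1 suspended array, with adjusted p from 0.0543 (without HS array 1) to 0.227 (without HS + EA array 2).

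Gstm3 had 6.81 and 6.76 log2 in HS + EA, 6.66 and 6.66 in HS, and 5.94 and 6.13 in control. It rose by 0.75 ± 0.13 in HS + EA (adjusted p = 0.0400), and in HS its difference was 0.63 ± 0.13 (adjusted p = 0.0768). A further, dimmer cluster of Gstm3 differed by 0.09 in HS + EA and 0.28 in HS, and with both averaged the HS + EA call was lost (0.42, adjusted p = 0.304). It was also lost without any 1 array except control array 2, with adjusted p from 0.0755 (without HS array 1) to 0.354 (without HS + EA array 1). Gstm2 differed by 0.54 ± 0.13 in HS and 0.58 ± 0.13 in HS + EA without passing (adjusted p = 0.111 and 0.0993). Mu-class transferases are close in sequence, so probes of one may also bind RNA of another. The median difference of the transferase list was 0.07 in HS and 0.08 in HS + EA, beside 0.01 for all genes in both.

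Among 30 measured genes of glutathione turnover, precursor supply and NADPH, 1 rose in HS + EA against control, where 1.03% of all genes passed. It was Dpep1, a membrane dipeptidase that splits dipeptides such as the cysteinylglycine released from glutathione, with 6.88 and 6.79 log2 in HS + EA, 6.33 and 6.41 in HS, and 5.88 and 6.05 in control. It rose by 0.87 ± 0.14 in HS + EA (adjusted p = 0.0259), and its difference was 0.40 ± 0.14 in HS (adjusted p = 0.240). Dpep1 differed between HS + EA and HS by 0.47 ± 0.14 (adjusted p = 1.00). Its HS + EA call was lost without control array 1 (0.79, adjusted p = 0.0585), HS array 2 (0.87, adjusted p = 0.0502), HS + EA array 1 (0.83, adjusted p = 0.267) or HS + EA array 2 (0.92, adjusted p = 0.198).

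Chac2, the paralogue of Chac1 that also degrades glutathione, had its values on the other side of control. It had 6.28 and 6.06 log2 in HS + EA, 5.65 and 6.00 in HS, and 6.56 and 6.42 in control. HS differed from control by -0.66 ± 0.16 (adjusted p = 0.109) and HS + EA from control by -0.32 ± 0.16 (adjusted p = 0.486). Ggct, the enzyme that acts on the gamma-glutamyl amino acids of the cycle, differed by 0.01 ± 0.15 in HS (adjusted p = 0.995). The exporter of glutathione conjugates Abcc1 was nearest to the threshold in HS, at 0.63 ± 0.13 (adjusted p = 0.0704). Of the NADPH sources, cytosolic Idh1 differed by 0.62 ± 0.13 in HS + EA (adjusted p = 0.0642) and mitochondrial Idh2 by -0.73 ± 0.15 (adjusted p = 0.0606). Cth, which releases cysteine for glutathione synthesis, had 5.52 and 5.30 log2 in HS + EA and 6.03 and 6.17 in HS, a difference of -0.69 ± 0.29 (adjusted p = 1.00), with controls at 4.81 and 5.87. The list median against control was -0.01 in HS and -0.05 in HS + EA.

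None of the 17 measured genes of the thioredoxin and peroxiredoxin system passed in any comparison. Of the 17 differences between HS and control, 12 were below 0 (median -0.19), beside 9742 of all 19938 genes. Txnip, which binds and inhibits thioredoxin, differed most, at 1.12 ± 0.29 in HS (adjusted p = 0.123) and 0.94 ± 0.29 in HS + EA (adjusted p = 0.197). Mitochondrial thioredoxin, Txn2, had -0.42 ± 0.13 in HS and -0.50 ± 0.13 in HS + EA (adjusted p = 0.184 and 0.128). No gene passed among 17 genes of superoxide, metal and radical handling. Hmox1, which breaks down haem, had 6.06 and 5.69 log2 in HS + EA, 5.63 and 5.39 in HS, and 4.18 and 5.26 in control, a difference of 1.16 ± 0.31 in HS + EA (adjusted p = 0.142). Cybb, the catalytic subunit of the phagocyte NADPH oxidase, had 6.55 and 5.81 in HS + EA, 5.73 and 5.36 in HS, and 4.97 and 5.49 in control. Its HS + EA and control difference was 0.95 ± 0.27 (adjusted p = 0.163). Within both suspended groups Cybb was higher on array 1, which had the higher macrophage, adipocyte, endothelial and erythroid marker means. Their part was not tested. Of 8 regulators of NRF2, none passed, and against control 4 differences were above 0 and 4 below in each suspended group. Nfe2l2, which encodes NRF2, differed by -0.28 ± 0.17 in HS (adjusted p = 0.576) and 0.08 ± 0.17 in HS + EA (adjusted p = 0.917). Nfe2l1, its relative, differed by -0.62 ± 0.14 in HS (adjusted p = 0.0885). The regulators Sqstm1 and Osgin1 differed by 0.65 ± 0.20 and 0.43 ± 0.16 in HS (adjusted p = 0.187 and 0.311).

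**Figure D3:**
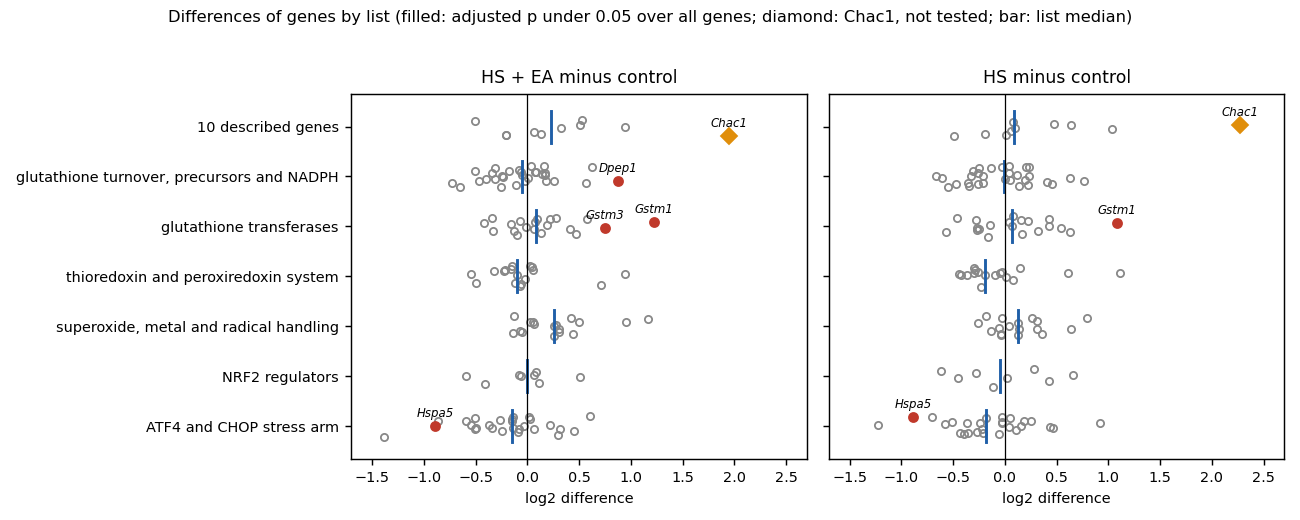
Log2 differences of the 10 genes and of the measured genes of 6 lists for HS + EA minus control and HS minus control, with 1 point per gene and a bar at the median of each list. Filled circles passed adjusted p under 0.05 over all genes (Gstm1 and Hspa5 in both, Gstm3 and Dpep1 in HS + EA), the diamond is Chac1, which carries no test, and all other differences are open circles.

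Chac1 was set beside 27 measured genes of the ATF4 and CHOP stress arm. Of these none rose and 1 fell in each suspended group against control. Of all genes 1.05% passed in HS and 1.03% in HS + EA, in either direction. The list medians were -0.18 in HS and -0.15 in HS + EA. Atf4 itself had 6.06 and 6.37 log2 in HS + EA, 6.38 and 6.21 in HS, and 6.42 and 6.54 in control, a difference of -0.18 ± 0.15 in HS (adjusted p = 0.705). Ddit3, which encodes CHOP, differed by -0.27 ± 0.24 in HS (adjusted p = 0.732). The ATF4 target genes Trib3, a pseudokinase, and Asns, asparagine synthetase, differed by -0.36 ± 0.19 and -0.70 ± 0.26 in HS (adjusted p = 0.482 and 0.288). These 4 genes were all named after their values were seen and do not stand for the list. Of the 27 list genes, 9 were above 0 and 18 below in HS, and 8 and 19 in HS + EA. Of all 19938 genes, 10196 were above 0 and 9742 below in HS, and 10176 and 9762 in HS + EA. The part of ATF4 or CHOP in the Chac1 values was not tested.

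Hspa5, the main chaperone of the endoplasmic reticulum, was the member of that list that fell. It had 8.37 and 8.35 log2 in HS + EA, 8.47 and 8.27 in HS, and 9.19 and 9.32 in control, with no overlap of either suspended group and control. It fell by 0.88 ± 0.13 in HS (adjusted p = 0.0228) and by 0.89 ± 0.13 in HS + EA (adjusted p = 0.0212). The HS call was lost without HS array 1 (adjusted p = 0.0953), HS array 2 (0.157), HS + EA array 1 (0.0756) or HS + EA array 2 (0.0763), and the HS + EA call without HS + EA array 1 (0.195) or array 2 (0.210). Atf3, a stress-induced repressor, had the lowest differences of the list, -1.22 ± 0.33 in HS and -1.39 ± 0.33 in HS + EA, without passing (adjusted p = 0.148 and 0.109). Ppp1r15a, which helps to restart translation after stress, had 4.32 and 4.52 log2 in HS + EA, 5.09 and 5.03 in HS, and 4.96 and 5.59 in control, with an HS + EA and HS difference of -0.64 ± 0.21 (adjusted p = 1.00). On the other side, Eif4ebp1, a brake on translation, differed by 0.92 ± 0.18 in HS (adjusted p = 0.0517).

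**Figure D4:**
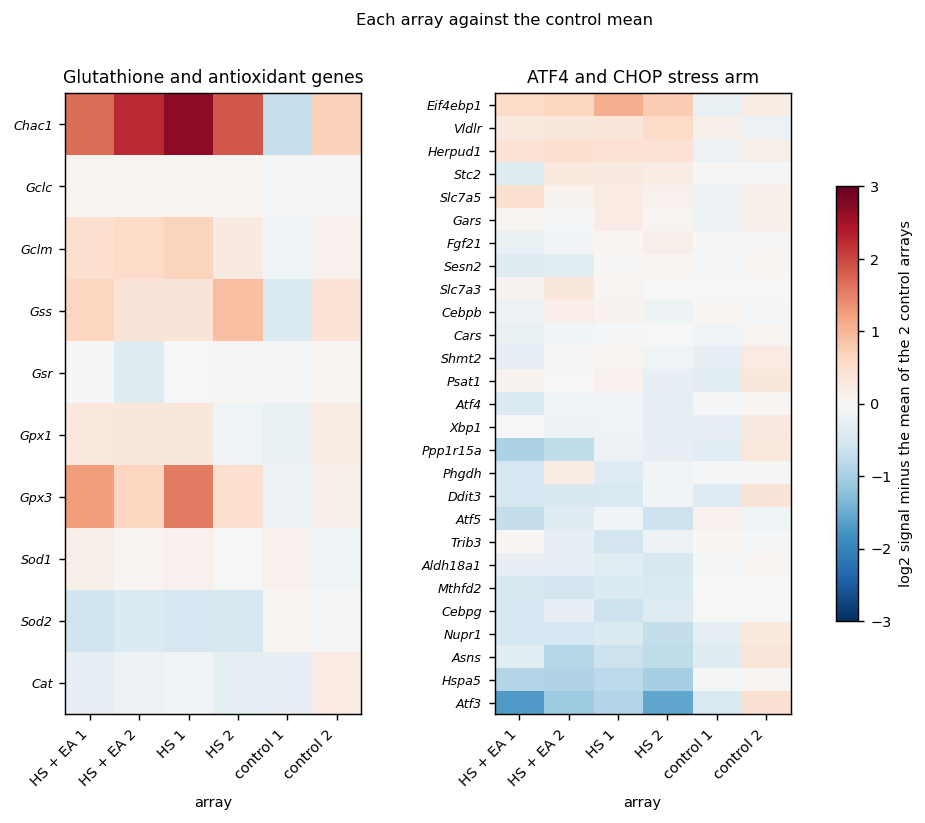
Each array's log2 signal minus the mean of the 2 control arrays, in columns HS + EA, HS and control, for the 10 genes (left) and 27 genes of the ATF4 and CHOP stress arm ordered by their HS minus control difference (right); red is above and blue below the control mean. Chac1 is red on all 4 suspended arrays, while Atf3, Hspa5 and Asns are at the blue end of the stress list.

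Over the 6 arrays the genes most like Chac1 were sought among 319 genes. These had a mean signal at or above the median, an SD of at least 0.5 log2 and no Rik, Gm, LOC or clone name. By Pearson r the nearest were Slc43a1, an amino acid transporter gene (0.988), Klhl38 (0.979), the clock repressor gene Cry2 (0.976), Txnip (0.973) and Lrrc17 (0.972). Slc43a1 had 6.62 and 6.96 log2 in HS + EA, 7.47 and 6.86 in HS, and 4.99 and 5.65 in control. All 5 had control array 1 below control array 2 and both below the suspended arrays, as had Chac1. That shared order follows from picking them by likeness on these same arrays. Of the other 9 genes described here the nearest was Gclm (r = 0.958). These r values rest on 6 arrays in 3 groups, which share the split between control and suspended arrays, and are a measure of likeness only.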

How the data were processed

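Soleus RNA (Trizol, biotin label) was measured on 6 Affymetrix arrays. Per the submitters' processing notes, the authors used RMA in Affymetrix Expression Console; versions and genome build are not given in the sources used here. The deposited values, log2 signals for 35556 transcript clusters, were left unchanged. By the platform annotation 21789 clusters had 1 symbol, 1621 several and 12146 none listed, and only the first kind was used. The brightest cluster stood for each of 999 genes with several, which gave 19938 genes, none filtered on signal.

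All 6 arrays entered 1 limma fit (limma 3.58.1, R 4.3.3) of group means, with eBayes variances trended on signal (3 residual, 5.88 prior degrees of freedom) and Benjamini-Hochberg adjustment over all genes at 0.05. Values after ± are limma standard errors, and the number of arrays limits precision. The fit was tested on simulated data. Members, lists, motifs and comparisons were chosen with earlier results of these data known. Beside the 10 genes, names came from list genes past the threshold, the 3 smallest p-values of a list in a comparison, and the 5 genes most like Chac1. Ggct, Ddit3, Trib3, Atf4, Asns, Mt2 and marker genes fell outside this and were named after their values were seen. Alternatives changed the variance prior, weighted arrays, kept genes at or above the median signal, normalized again (quantile, median, cyclic loess), averaged clusters, fitted compared groups alone, blocked on replicate number or left out 1 array. Repeating them on the list genes was decided after seeing the data. Of 130 list genes, 11 were not analysed here.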

Additional observations from a re-analysis of the deposited data

How the results depend on the processing

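The count of genes past the threshold between HS and control was 209, and 80 with one variance prior for all genes, 130 with array weights, 68 with the compared groups alone and 102 with a replicate block. With 1 array left out it was 16 without HS array 1, 42 without HS array 2, 67 without either HS + EA array, 228 without control array 1 and 301 without control array 2. Between HS + EA and control it was 206, and 101 with one prior, 312 with quantile normalization again, 129 with the compared groups alone and 127 with a replicate block, and 9 and 2 without HS + EA array 1 and 2, 124 and 113 without HS array 1 and 2, and 206 and 299 without control array 1 and 2. Between HS + EA and HS it was 0, and 4 with array weights, 3 with the compared groups alone and 0 to 3 with 1 array left out. The labels do not say whether array numbers pair samples across groups. Deviations of same-numbered arrays correlated at -0.16, 0.02 and -0.02, which cannot settle it with 2 arrays per group. With the replicate block the HS calls of Gstm1 and Hspa5 (adjusted p = 0.0711 and 0.0546) and the HS + EA calls of Gstm3 and Dpep1 (0.0897 and 0.0566) were lost.

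None of the 9 enzyme genes passed under any alternative in any comparison. Gsr turned to -0.0047 with quantile normalization again and -0.010 with cyclic loess between HS and control, and Gclc to -0.00083 with median centring between HS + EA and HS. There Hspa5 turned to 0.0044 and 0.0065 with quantile normalization and cyclic loess, and Gstm3 to -0.031 with the mean of its clusters. With 1 array left out, differences between HS and control ran from -0.044 to 0.067 for Gsr, -0.13 to 0.33 for Gpx1, -0.063 to 0.21 for Sod1 and -0.44 to 0.045 for Cat. Those of HS + EA minus HS ran from -0.73 to 0.084 for Chac1, -0.62 to 0.44 for Gpx3, -0.10 to 0.074 for Cat, -0.15 to 0.24 for Gclm, -0.40 to 0.13 for Gss, -0.0056 to 0.46 for Gpx1, -0.0056 to 0.11 for Sod1, -0.0070 to 0.021 for Gclc, -0.10 to 0.076 for Sod2 and -0.11 to 0.093 for Hspa5. Between HS + EA and control they ran from -0.0090 to 0.27 for Sod1 and -0.45 to 0.031 for Cat. For Chac1 the HS and control difference ran from 1.58 to 2.97. Of 119 list genes, 7 were higher and 2 lower between HS and control without control array 2, against 1 and 1 with all arrays, and 7 and 1 between HS + EA and control, against 3 and 1. With one prior no list gene passed: adjusted p was 0.0853 for Gstm1 and 0.0550 for Hspa5 in HS, and 0.0510 for Dpep1 and Hspa5, 0.0594 for Gstm1 and 0.0785 for Gstm3 in HS + EA. With the compared groups alone the HS calls of Gstm1 and Hspa5 (0.112 and 0.0762) and the HS + EA calls of Gstm1 and Gstm3 (0.0546 and 0.0762) were lost. Fits without an array have 2 residual degrees of freedom, and a lone array is assumed to vary like the other groups.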
